A study of Rattus norvegicus with 4 samples.

Results

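Prostaglandins, thromboxane and leukotrienes are lipid mediators made from arachidonic acid, and the 10 rat genes described here, Ptgs1, Ptgs2, Ptges, Tbxas1, Hpgds, Alox5, Alox5ap, Alox15, Lta4h and Ltc4s, encode enzymes of their synthesis and 1 helper protein. They were taken by symbol, through the RefSeq accession of each probe, and are 10 of 16526 named genes with a value on every array. In all, 13 probes on 24 spots per array read them, and 3 of the genes, Ptgs1, Tbxas1 and Hpgds, had more than 1 probe. RNA came from NR8383, a macrophage line begun from the lung lavage of a normal rat, at 20 passages. The cells had been kept for 4 h with NRCWE021, a zinc iron oxide (ZnFe2O4), at 17 µg/mL. The 4 arrays are biological replicates of this 1 group, as the series text calls them, and unexposed control cells were not analysed here, so no gene is said to change with exposure. A line is a single cell population, grown as part adherent and part floating cells, and stands in for the alveolar macrophage without its lung surroundings.

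In macrophages, phospholipases free arachidonic acid from membranes, and it is then oxidised along separate routes. Cyclooxygenases turn it into prostaglandin H2, from which terminal synthases make prostaglandin E2, prostaglandin D2 or thromboxane. On the lipoxygenase route, the enzyme encoded by Alox5 works with its membrane helper, encoded by Alox5ap, to make leukotriene A4, which the Lta4h product hydrolyses to leukotriene B4, an attractant of neutrophils, or the Ltc4s product joins to glutathione to give cysteinyl leukotrienes. Alveolar macrophages are known as a source of leukotriene B4 and thromboxane.

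The stretches of 250 bases upstream of the RefSeq gene start are shown for 4 members (RefSeq, GRCr8, a later build than that of the array design). They give, on each route, the promoter of a gene that was detected, meaning flagged by the scanner software as well above background, on all 4 arrays beside that of a gene that was not: Ptgs1 (chr3:39981169-39981418, plus strand) and Ptgs2 (chr13:64713813-64714062, plus strand) for the cyclooxygenases, Alox5 (chr4:151251127-151251376, minus strand) and Ltc4s (chr10:35063595-35063844, minus strand) for the leukotriene route. Capitals mark matches, on either strand, to any of 7 motifs: the TATA box TATAAA, the GC box GGGCGG, the CRE half-site TGACG, the AP-1 site TGANTCA, the PU.1 core GAGGAA, the C/EBP site TTNNGNAA and the E-box CACGTG.
Ptgs1: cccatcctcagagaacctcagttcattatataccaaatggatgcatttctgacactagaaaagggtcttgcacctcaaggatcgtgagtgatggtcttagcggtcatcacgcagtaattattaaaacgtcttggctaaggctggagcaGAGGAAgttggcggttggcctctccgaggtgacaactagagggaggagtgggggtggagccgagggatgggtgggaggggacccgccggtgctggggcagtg
Ptgs2: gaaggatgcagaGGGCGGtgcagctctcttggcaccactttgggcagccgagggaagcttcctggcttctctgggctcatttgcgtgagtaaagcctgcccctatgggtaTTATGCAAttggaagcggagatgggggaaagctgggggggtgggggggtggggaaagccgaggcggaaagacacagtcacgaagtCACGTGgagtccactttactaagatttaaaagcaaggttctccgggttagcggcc
Alox5: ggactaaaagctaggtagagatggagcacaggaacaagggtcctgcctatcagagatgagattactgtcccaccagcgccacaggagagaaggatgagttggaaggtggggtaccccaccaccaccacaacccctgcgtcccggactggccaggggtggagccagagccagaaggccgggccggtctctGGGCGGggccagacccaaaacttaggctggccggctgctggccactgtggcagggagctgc
Ltc4s: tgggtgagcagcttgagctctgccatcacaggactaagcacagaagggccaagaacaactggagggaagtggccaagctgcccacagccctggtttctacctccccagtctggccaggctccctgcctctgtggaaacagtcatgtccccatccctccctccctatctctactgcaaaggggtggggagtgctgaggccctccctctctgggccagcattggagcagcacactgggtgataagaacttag
The Ptgs2 window held a GC box at -238 to -233, a C/EBP match at -140 to -133 and an E-box at -55 to -50 from the gene start, and the Ptgs1 window held a PU.1 core at -102 to -97 alone. The Alox5 window held a GC box at -61 to -56, and none of the 7 motifs was found in the Ltc4s window. Of 33469 rat promoters of the same length, 30.5% held the GC box, 37.2% the C/EBP site, 5.59% the E-box and 23.3% the PU.1 core. The GC content was 54.4%, 57.2%, 62.8% and 58.8% for Ptgs1, Ptgs2, Alox5 and Ltc4s, against a median of 51.2% over all promoters. These matches describe the letters only. Promoter entries were matched for 7 of the 10 members, and Hpgds, Alox5ap and Alox15 had no entry. The windows of Ptges, Tbxas1 and Lta4h, not shown, also held a PU.1 core among other matches. Of these genes, Tbxas1 and Lta4h were detected on all 4 arrays and Ptges was not.

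The arrays differed in the signal of dim spots. The median processed signal over 58717 gene spots, in intensity units after the scanner software's background subtraction, was 13.5, 542, 133 and 7.37 on replicates 1 to 4, and the share of named genes detected was 52.2%, 91.5%, 75.3% and 46.2%. Spike-ins are control RNAs added in known amounts, read by 10 probes, and the dimmest was detected on 33 of 33 spots on replicate 2 and 32 of 32 on replicate 3, and on 0 of 34 and 0 of 35 spots on replicates 1 and 4. Negative control spots, of which each array has 308, reached 8.05, 169, 60.8 and 7.65 units. On replicate 2, 4 of these control spots were themselves flagged as well above background, and 0 were on each other array. Detection is therefore given for all 4 arrays and for replicates 1 and 4, signals are given per array, and signals of different probes are not compared.

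Of the 10 members, 5 were detected on all 4 arrays, namely Ptgs1, Tbxas1, Alox5, Alox5ap and Lta4h, and the same 5 were on replicates 1 and 4. This share of 50% lies near that of all named genes, of which 42.4% were detected on all 4 arrays and 45.9% on replicates 1 and 4, so the count itself does not set the members apart. The other 5, Ptgs2, Ptges, Hpgds, Alox15 and Ltc4s, were not detected on replicate 1 or 4, and 4 of them were on both replicate 2 and replicate 3. Detection on replicates 2 and 3 only was seen in 4578 of 16526 named genes. Counting all members, 9 of 10 were detected on both of these arrays, against 74.6% of all named genes. When a gene had to exceed the dimmest spike-in probe of its array by 3 SD, 3 members, Tbxas1, Alox5 and Lta4h, passed on all 4 arrays, against 18.9% of all named genes.

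**Figure D1:**
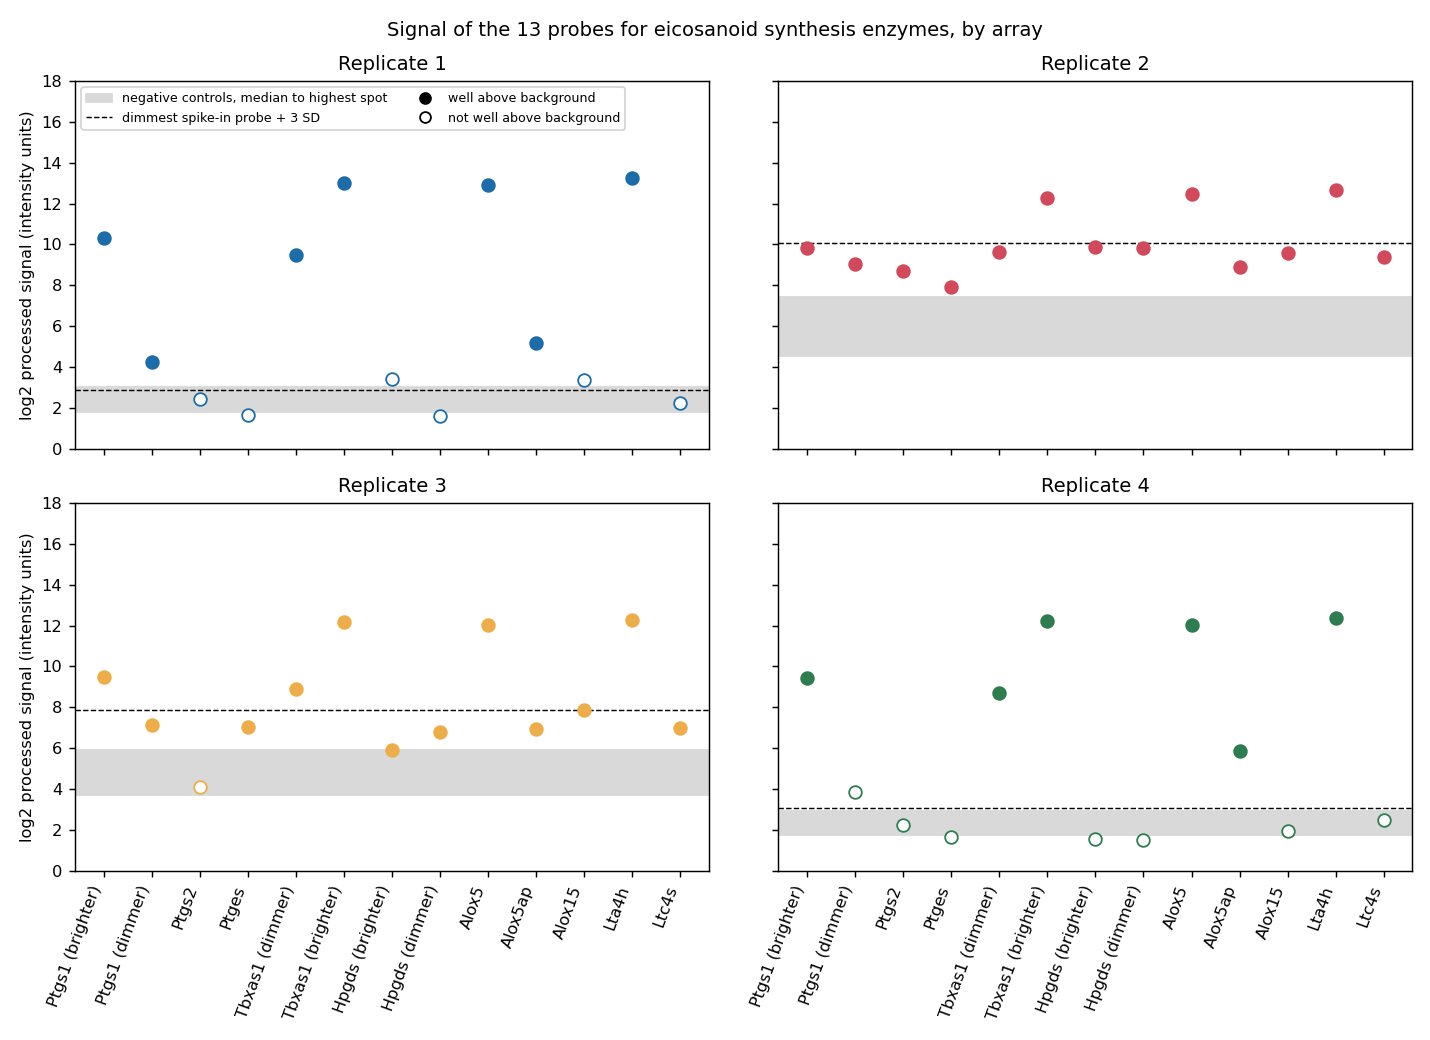
Log2 processed signal (intensity units) of the 13 probes on each of the 4 arrays, 1 panel per replicate. Filled points are detected probes and open points are not, the grey band runs from the median to the highest of 308 negative control spots, and the dashed line is the dimmest spike-in probe plus 3 SD; the open points of replicates 1 and 4 lie at or below 14.4 units, while on replicate 2 all 13 probes lie above the band and 3 of them, for Tbxas1, Alox5 and Lta4h, above the line.

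Among the cyclooxygenases, the constitutive gene Ptgs1 was read and the inducible gene Ptgs2 was not. The brighter Ptgs1 probe (A_44_P137448) had signals of 1284, 909, 719 and 702 units on replicates 1 to 4, each the mean of 2 spots. All of these lay above every negative control spot of their array, and the highest was 1.83 times the lowest. The second Ptgs1 probe (A_64_P375942) had 19.2, 525, 141 and 14.4 units and was not detected on replicate 4. Its highest signal, on replicate 2, was 36.5 times its lowest, so the probes of this gene also disagreed in their pattern over the arrays. On replicates 2 and 3 it lay below the dimmest spike-in probe plus 3 SD (1070 and 238 units), as the brighter probe did on replicate 2. Detection of Ptgs1 on all 4 arrays thus rests on the brighter probe. The Ptgs2 probe (A_64_P129316) had 5.44, 410, 17.3 and 4.71 units. Replicate 2 was the only array on which it was well above background, and 2, 19 and 12 of 308 negative control spots were at least as bright on replicates 1, 3 and 4. Ptgs2 was the only member not flagged on replicate 3.

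Of the terminal prostanoid synthases, the thromboxane synthase gene Tbxas1 was read by both of its probes on all 4 arrays. Its brighter probe (A_44_P260072) had 8277, 4965, 4646 and 4817 units, so replicate 1 was high and the other arrays lay close together. The dimmer probe (A_44_P1082004) had 723, 791, 485 and 413 units and was highest on replicate 2 instead. Ptges, which encodes the inducible microsomal prostaglandin E synthase, had 3.15, 244, 129 and 3.09 units. On replicates 1 and 4 this was at or below the signal of 268 and 230 of the 308 negative control spots. Hpgds, the haematopoietic prostaglandin D synthase gene, had 10.8, 936, 60.8 and 2.91 units on its brighter probe (A_44_P1162075) and 3.08, 894, 111 and 2.86 units on the other (A_44_P439292). On replicate 1 the brighter of these probes exceeded every negative control spot without reaching the flag, while 293 of 308 negative control spots were at least as bright as the other.

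On the lipoxygenase route, Alox5 had 7774, 5591, 4227 and 4195 units on replicates 1 to 4, each the mean of 2 spots. No negative control spot came near these signals, and the highest was 1.85 times the lowest. Alox5ap had 36.5, 478, 122 and 57.6 units on a single spot, with errors given by the scanner software of 5.10 on replicate 1 and 6.93 on replicate 4. It was detected on every array, at 8.47, 3.45, 5.27 and 10.6 times the 99th percentile of the negative control spots. Alox15 encodes a lipoxygenase that oxidises another carbon of arachidonic acid and is known from eosinophils and alternatively activated macrophages. It had 10.4, 756, 235 and 3.84 units and was not detected on replicate 1 or 4, where 0 and 75 of 308 negative control spots were at least as bright.

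The 2 enzymes that act on leukotriene A4 were read differently. Lta4h, whose product makes leukotriene B4, had 9854, 6393, 4986 and 5268 units as means of 9 spots, and the highest was 1.98 times the lowest. Ltc4s, whose product makes leukotriene C4, had 4.68, 666, 129 and 5.62 units on 1 spot. On replicates 1 and 4 it was not well above background, and 3 of 308 negative control spots were at least as bright on each. By the software's weaker flag, for a positive and significant signal, and by the 99th percentile of the negative control spots, Ltc4s passed on all 4 arrays, which made it the sixth member called; under each of these rules the other 4 dim members did not pass on all arrays.

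The error within an array could be seen where a probe had several spots. Lta4h was printed 10 times per array, and the 9 spots used had a coefficient of variation of 5.37%, 6.55%, 6.83% and 13.1% on replicates 1 to 4. For the 2 Alox5 spots it was 3.15%, 5.82%, 7.22% and 7.19%, and for the 2 spots of the brighter Ptgs1 probe it was at most 4.02%. The Lta4h spots of replicate 1 (9151 to 10759 units) did not overlap those of any other array, and those of replicates 3 (4629 to 5690) and 4 (3833 to 6050) overlapped. Of the 13 probes, 10 had 1 spot per array, so no such error is known for the others, among them all probes of the dim members.

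**Figure D2:**
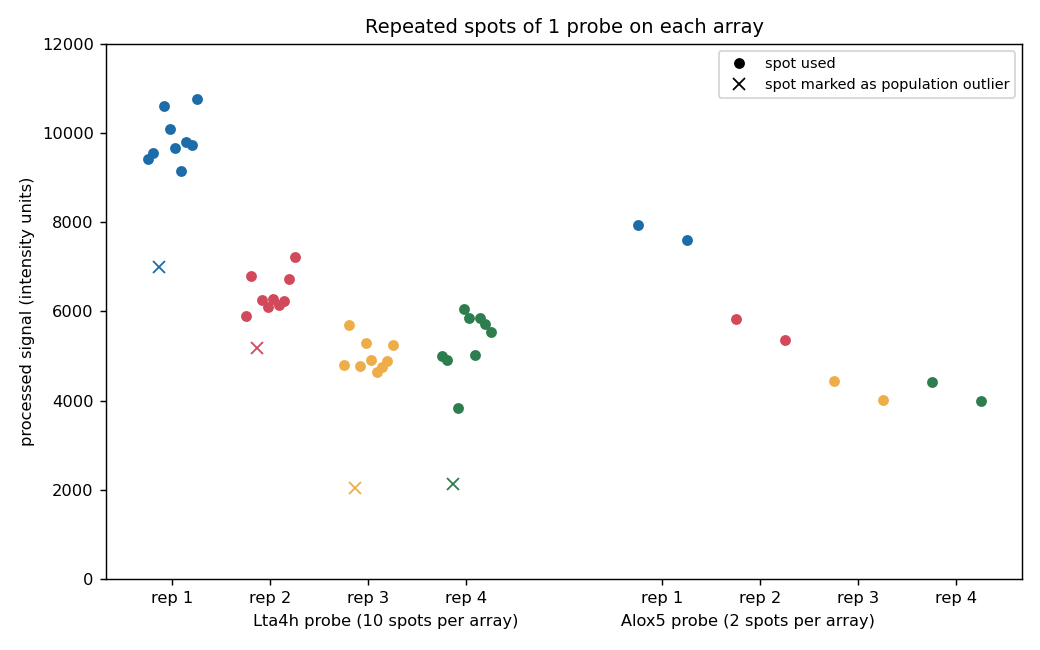
Processed signal (intensity units, linear axis from 0) of each spot of the Lta4h probe (10 per array) and of the Alox5 probe (2 per array) on replicates 1 to 4. Circles are spots used and crosses are spots marked as population outliers by the scanner software; 1 Lta4h spot per array carries this mark, and the replicate 1 spots used lie above the used spots of every other array for both genes.

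Levels were also expressed as log2 signal minus each array's 75th percentile, with the mean ± SD over n = 4. Ptgs1 had a level of 2.40 ± 1.86, Tbxas1 of 5.06 ± 1.98, Alox5 of 4.99 ± 1.85, Lta4h of 5.27 ± 1.92 and Alox5ap of -0.65 ± 0.70, each relative to its arrays and not to the other genes. Their median SD was 1.86, against 1.55 over the 6904 genes detected by their chosen probe on every array. The 75th percentile itself was 88.7, 851, 220 and 45.2 units on replicates 1 to 4. For Lta4h the levels were 6.80 on replicate 1, 2.91 on replicate 2 and 6.86 on replicate 4, so replicates 1 and 4 differed by 0.07 and replicates 1 and 2 by 3.89. Ptgs1, Tbxas1 and Alox5 had the same order of arrays, with replicate 2 lowest and replicate 4 highest.

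The order of the arrays depended on the scaling. Against the 3 brightest spike-in probes, the SD was 0.37 for Ptgs1, 0.30 for Tbxas1, 0.40 for Alox5 and 0.40 for Lta4h, and replicate 3 was lowest for each of these genes. The difference of replicate 1 minus replicate 2 was then -0.06, 0.18, -0.08 and 0.07 in the same order, so its sign turned for Ptgs1 and Alox5. Alox5ap went the other way, from an SD of 0.70 on the 75th percentile to 1.82 on the spike-ins. Without any scaling the median SD of the 5 genes was 0.42, and 0.72 over the same 6904 genes.

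**Figure D3:**
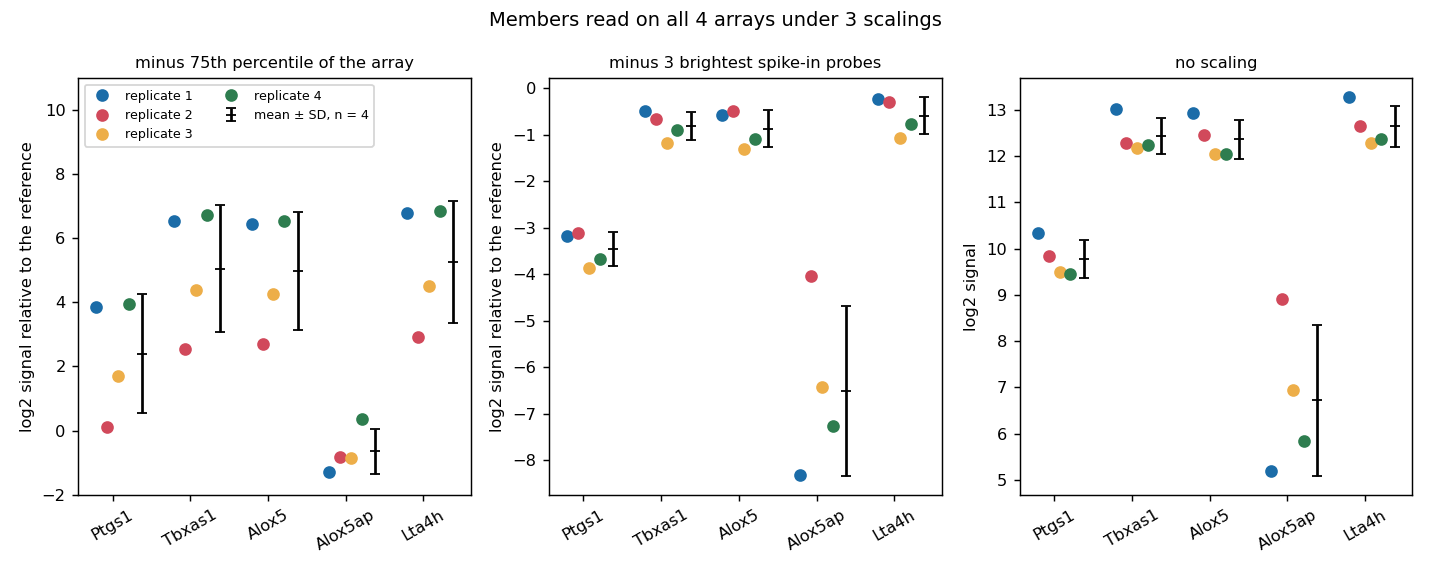
Log2 signal of the 5 members read on all 4 arrays, against each array's 75th percentile, against the 3 brightest spike-in probes, and unscaled (the log2 axes differ between panels). Points are replicates 1 to 4 and bars are mean ± SD over n = 4; the median SD is 1.86, 0.40 and 0.42 in the 3 panels, and Alox5ap spreads least in the first and most in the others.

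Among the 5 members detected on all 4 arrays, the spread of the signal across arrays was uneven. For the chosen probes of Ptgs1, Tbxas1, Alox5 and Lta4h the highest array was 1.78 to 1.98 times the lowest, and for Alox5ap it was 13.1 times, with the highest signal on replicate 2. On replicates 2 and 3 Alox5ap, at 478 and 122 units, lay below the median gene spot (542 and 133 units). It was also below the dimmest spike-in probe plus 3 SD there (1070 and 238 units). Its ratio is therefore not read as a spread of expression. The median ratio over the 6904 genes was 3.02. Ptgs2, Ptges, Hpgds, Alox15 and Ltc4s were also brightest on replicate 2, and no ratio is given for them because their signals on replicates 1 and 4 were not well above background. The negative control spots and the median gene spot were also highest on replicate 2, and what raised these signals was not tested. On replicates 1 and 4 the 5 dim members have only a bound, and their values on replicates 2 and 3 are not read as expression.

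Upstream of the members, 6 of 9 measured phospholipase and lipase genes were detected on replicates 1 and 4: Pla2g4a, Pla2g2d, Pla2g6, Pla2g15, Pla2g7 and Mgll. This is 66.7%, against 45.9% of all named genes. Against the dimmest spike-in probe plus 3 SD, 2 of the 9 passed on all 4 arrays, beside 18.9% of all named genes. Pla2g4a encodes the cytosolic phospholipase that frees arachidonic acid, and its probe had 115, 255, 75 and 54.0 units on replicates 1 to 4. On replicates 2 and 3 these lay below the median gene spot (542 and 133 units). The secreted phospholipase gene Pla2g2a had 5.49, 508, 294 and 5.83 units and was not detected on replicate 1 or 4. Pla2g2d, another secreted form, had 757, 449, 339 and 277 units.

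Of 10 further synthases and lipoxygenases, 5 were detected on replicates 1 and 4. They were Ptges2 and Ptges3, which encode the other prostaglandin E synthases, Cbr1, a carbonyl reductase that acts on prostaglandins, Alox12b, an epidermal lipoxygenase, and Cotl1, whose product binds the Alox5 enzyme. Ptges2 had 400, 1211, 501 and 239 units and Ptges3 had 2628, 2239, 968 and 2017 units. Both lay above every negative control spot on each array, unlike Ptges on replicates 1 and 4. Alox12b had 25.3, 400, 136 and 17.8 units and was detected on all 4 arrays. On replicate 2 it lay below the median gene spot (542 units). On replicates 2 and 3 it was below the dimmest spike-in probe plus 3 SD (1070 and 238 units). The prostaglandin D synthase gene Ptgds, with 11.6, 768, 217 and 5.17 units, was detected on replicates 2 and 3 alone, as were Ptgis, Alox12, Alox15b and Aloxe3. The list as a whole had the same 50% on replicates 1 and 4 as the members.

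Receptors pass the signal of these lipids to the cell. Of 9 prostanoid receptor genes, 3 were detected on replicates 1 and 4, namely Ptger2, a prostaglandin E2 receptor, Ptgdr, a prostaglandin D2 receptor, and Ptgir, the prostacyclin receptor. This is 33.3%, against 45.9% of all named genes. Ptger2 had 342, 1520, 415 and 219 units. Of the other prostaglandin E2 receptor genes, Ptger1 had 3.59, 748, 262 and 6.84 units on its brighter probe and Ptger3 had 14.5, 1525, 185 and 9.14 on the brightest of its 3 probes by mean log2 signal, and neither was detected on replicate 1 or 4; nor was Ptger4. The thromboxane receptor gene Tbxa2r, at 24.7, 239, 126 and 6.07 units, was detected on replicates 1, 2 and 3 but not on replicate 4. None of the 4 measured leukotriene receptor genes, Ltb4r, Ltb4r2, Cysltr1 and Cysltr2, was detected on replicate 1 or 4. The leukotriene B4 receptor gene Ltb4r had 3.37, 536, 90.6 and 3.25 units, and 188 and 184 of 308 negative control spots were at least as bright on replicates 1 and 4. Ltb4r2, the gene of the second leukotriene B4 receptor, was detected on no array, with 2.98, 48.8, 34.0 and 2.71 units. Cysltr1, a receptor gene for cysteinyl leukotrienes, had 3.84, 723, 122 and 3.48 units. For export and breakdown, 4 of 9 genes were detected on replicates 1 and 4: the exporters Abcc4 and Abcc1, the reductase Ptgr1 and the dipeptidase Dpep2. That share of 44.4% lies near the 45.9% of all named genes. Abcc4 had 404, 1066, 198 and 152 units and Abcc1 522, 1290, 423 and 260 units on their brighter probes. The second Abcc1 probe, at 3.42 and 3.51 units, was not detected on replicates 1 and 4, so the probes of this gene disagreed. Slco2a1, which takes up prostaglandins and had 3.77, 681, 162 and 3.65 units on its brightest probe by the same measure, and Hpgd, the main prostaglandin dehydrogenase, were not detected on replicate 1 or 4.

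**Figure D4:**
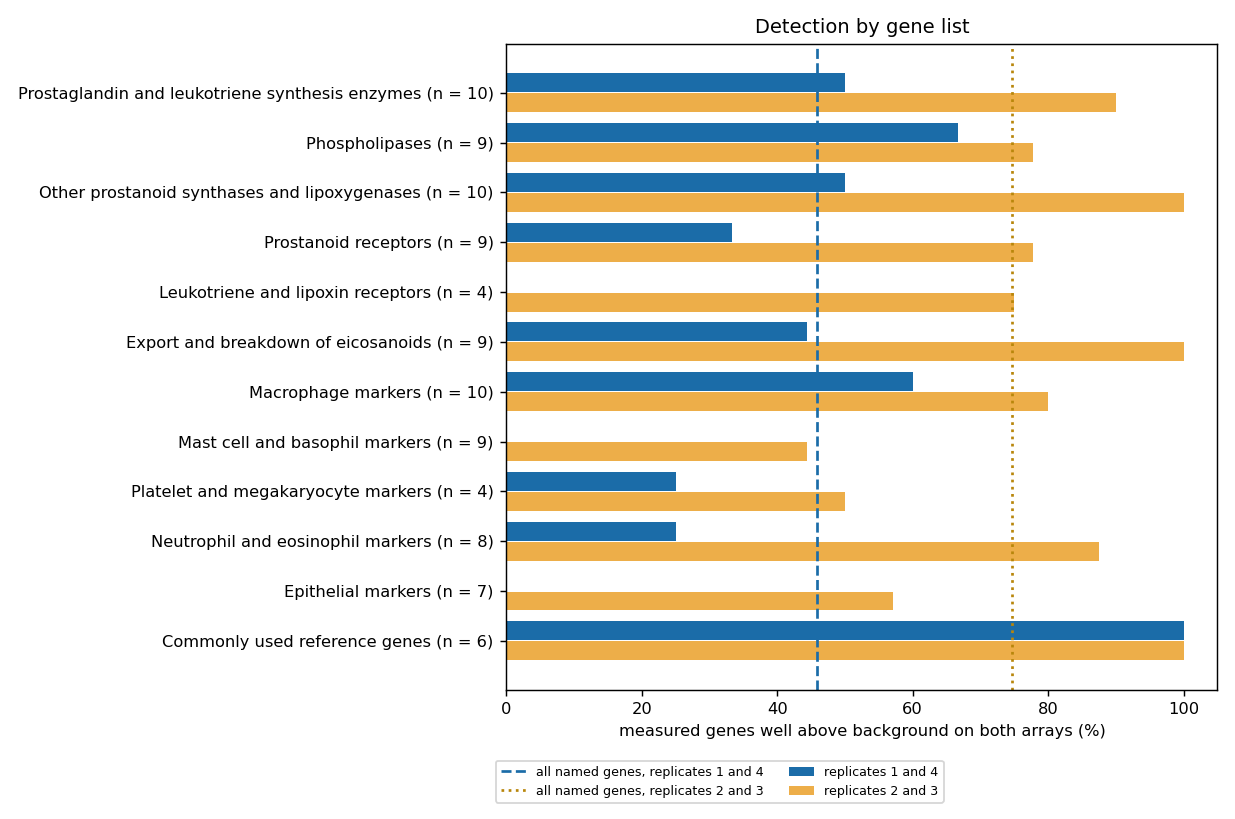
Share of measured genes (%, axis from 0) of each list with a probe detected on both replicates 1 and 4, or on both replicates 2 and 3. Vertical lines are the shares of all 16526 named genes, 45.9% and 74.6%; the 10 members stand at 50% and 90%, and no measured leukotriene receptor, mast cell or epithelial gene was read on both replicate 1 and replicate 4.

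The labelled cell type was set against its markers. Of 10 measured macrophage markers, 6 were detected on replicates 1 and 4 (Cd68, Msr1, Mrc1, Siglec1, Tyrobp and Spi1), while Marco, Adgre1, Mertk and Cd163 were not. This 60% lies near the 45.9% of all named genes, so the count itself does not set these markers apart. The same 45.9% is the share to set beside the counts of other cell types below. Because Hpgds, Ltc4s, Tbxas1 and Ptgs1 are also known from mast cells, eosinophils and platelets, their markers were read too. None of 9 mast cell and basophil markers was detected on both replicate 1 and replicate 4, and the defining genes Kit, Cpa3, Ms4a2 and Fcer1a were so on neither. Hdc and Gata2 were on replicate 1 and not on replicate 4. Of 4 measured platelet markers, Gp9 was detected on both replicate 1 and replicate 4, and Pf4 was on replicate 4, at 26.4 units, and not on replicate 1. Of 8 neutrophil and eosinophil markers, S100a8 and Camp were detected on both. The eosinophil genes Prg2 and Epx and all 7 epithelial markers were detected on neither. The RNA came from 1 cell line and was pooled over its cells. A marker made by few of these cells and a marker made at a low level by all of them cannot be told apart.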

How the data were processed

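RNA of NR8383 cells treated with zinc iron oxide was read on 4 arrays of 1 colour (Cy3) on 1 slide. The deposited intensity was produced by Agilent Feature Extraction 11.0.1.1, per the file headers and the submitters' processing notes, with background subtraction and spatial detrending inside each array; no scaling between arrays is recorded. The deposited value table equals the median pixel intensity on all 62976 spots of each array and was not used further.

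Controls and spots flagged as non-uniform or population outliers were dropped, and a probe's spots were averaged on the log2 scale, leaving 45385 probes. Probes were named through their accession and the RefSeq table of GRCr8, so 21023 were named and 24362 were not. A probe was called detected if more than 0.5 of its spots carried the well-above-background flag, and a gene if any probe was. The brightest probe gives the level of a gene. No test between groups was possible with 1 group, and precision is limited by the 4 arrays. The code for the scaling and the gap-over-range rule was checked on simulated data. The simulated arrays differed by a constant shift over all probes, whereas here dim probes differed more than bright ones. The check therefore does not bear on whether this scaling suits these arrays. Python 3.11.15 and limma 3.58.1 (normexp) were used.

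The members and lists were chosen with earlier results of these data known. All members are named, and of other lists the genes behind counts, with values for most of the first 3 measured pathway genes; 85 of 93 entries of 11 lists were measured. Alternatives were other detection rules, other scalings, normexp with an offset of 50, all probes, spots kept, no filter and leaving out each replicate.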

Additional observations from a re-analysis of the deposited data

How the results depend on the processing

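The count of 5 members detected, on all 4 arrays and on replicates 1 and 4, stayed within 1.5 times under each other flag, probe and spot rule tried (5 or 6), with 1 exception: against the dimmest spike-in probe plus 3 SD, 3 members passed on all 4 arrays and 5 on replicates 1 and 4. Leaving out each replicate gave 5 in each case. The median SD of the levels, 1.86, was 0.16 after quantile normalization, 0.34 with the 75th percentile over probes detected on all arrays, 0.40 on spike-ins, 0.071 with replicates 1 and 4 alone and, chosen after seeing the data, 0.42 with no scaling. It ran from 1.29 to 2.20 without each replicate. It thus depends on the scaling and on replicates 2 and 3. Of 55 levels recomputed for 5 members, 45 moved by less than the gene's own SD over the 4 arrays. That SD was 1.85 to 1.98 for all but Alox5ap, so a large shift could stay within it. Ptgs1 fell from 2.40 to 0.55 with all its probes averaged and still counted as within 1 SD. Genes with 1 probe could not move under that rule, so the count says little about stability. The 10 other levels came from the 2 scalings that set another zero. Naming probes by a gene name column was not run, since the columns used here hold accessions. No paired analysis was possible because there is 1 group. Dim members have only a bound, set by the background of each array.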

Other observations

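Alox5ap, singled out after its values were seen, was the member whose signal was higher on replicate 4 than on replicate 1 among the 5 read on all arrays. Its level differed by -1.63 (replicate 1 minus replicate 4), while Ptgs1, Tbxas1, Alox5 and Lta4h differed by -0.10, -0.19, -0.08 and -0.07. A difference of this size or larger was seen in 13 of 6904 genes (0.188%) read on all arrays, whose median absolute difference was 0.20. Before background subtraction the Alox5ap spot had 82 and 83.5 units on replicates 1 and 4, with 29 and 27 units around it. With normexp correction the difference was -0.52, a size reached in either direction by 21.3% of the same genes. That correction adds an offset of 50, near the 36.5 and 57.6 units of Alox5ap, which by itself narrows log2 differences of dim spots. Ptgs1, Tbxas1, Alox5 and Lta4h then differed by 0.20, 0.33, 0.33 and 0.36. The 0.188% and the 21.3% are therefore not directly comparable. The Alox5ap difference rests on 1 spot per array, and the part of the background subtraction in it was not tested.

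The same Lta4h spot of the 10 was marked as a population outlier on all 4 arrays. It stood at 70.9%, 80.9%, 41.0% and 40.1% of the mean of the other 9 on replicates 1 to 4, below the lowest of them on each array. None of the 20 levels of members and first-named list genes checked had a replicate apart from the others by a gap over range above Dixon's critical value for 4 samples. These levels carry the array scaling, which put replicates 1 and 4 together for Ptgs1, Tbxas1, Alox5 and Lta4h (gap over range 0.40 to 0.44). With that pattern the check could hardly flag 1 replicate, so it does not show that no array stood apart.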
